A study of Mus musculus with 3 samples.

Results

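Interferon-stimulated genes are the genes that type I and type II interferon switch on, and 40 of them were followed here in multipotent progenitors of mice that had all received poly(I:C). The list was given by gene symbol, and a gene's probes on the array were taken under its current symbol or an older one. Of the 40 genes, 39 had a probe and all 39 passed the filter on dim signal, out of 22224 genes tested. Xaf1 was matched to no probe and is not analysed here.

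The study compared multipotent progenitors of mutant and control mice, sorted from bone marrow as lineage-negative, c-kit-positive and Sca-1-positive cells. Mutant mice carried Mx1-Cre and floxed Mef2c (Mx1-cre+ Mef2cfl/fl), and control mice carried the floxed alleles without Cre (Mef2cfl/fl). Both groups received 250 µg poly(I:C) on 4 consecutive days, and 15000 cells per sample were sorted 2 days after the last dose. Each of 3 arrays carried 1 mutant library in Cy3 and 1 control library in Cy5. No untreated mice were part of the comparison, so the size of the response to poly(I:C) itself was not measured. Because poly(I:C) was given to both groups, a ratio shows only how the treated mutant differed from the treated control. The labels give no age or sex, and whether each replicate was its own animal is not stated, so the p-values cover only the spread between these samples, which may be technical. Mx1-Cre is driven by the promoter of Mx1, itself one of the 39 genes, and is known to act in many tissues besides blood. An effect of Cre cannot be told apart from the loss of Mef2c, and a dye effect cannot be told apart from genotype.

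Poly(I:C) imitates viral double-stranded RNA. It is sensed by Toll-like receptor 3 in endosomes and by the helicases MDA5 and RIG-I in the cytoplasm, which lead to the release of interferon. Type I interferon acts through its receptor on the kinases JAK1 and TYK2. A complex of transcription factors that holds STAT2 and IRF9 then binds a short repeat of GAAA, the interferon-stimulated response element, in the promoters of its targets. Interferon is known to drive stem cells into cycle and to raise Sca-1 on progenitors, so it bears on the marker that was used in this sort.

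This response element could be searched in RefSeq promoter windows of GRCm38.p6, which run from 250 bases before to 50 bases after each gene's start. Windows were at hand for 32 of the 40 genes. A motif of GAAA, any 2 bases and GAAA again, on either strand, was found in 19 of these 32 genes (59.4%), against 3.99% of all 27025 genes with a window and 3.44% of all 32851 windows. The longer form, in which CT follows the repeat and whose matches are also matches of the shorter one, was found in 11 of the 32 (34.4%) against 0.303% of genes. The 19 genes held 30 matches to the shorter repeat. In 15 of the 19 genes the match nearest to the start lay before it, at a median of 75 bases and between 12 and 222 bases away. A match is a description of the letters in the window and was not tested as a binding site.

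The matches to the shorter repeat are shown in capitals, 5′ to 3′ in the gene's own direction, for 2 textbook targets (Isg15, Ifit1), for a pair of neighbouring copies (Oas1a, Oas1g), for the feedback inhibitor gene Socs1, and for genes whose array values are described further on.
Isg15, chr4:156200855-156200904, minus strand: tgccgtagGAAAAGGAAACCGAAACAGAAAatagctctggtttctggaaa
Ifit1, chr19:34640784-34640833, plus strand: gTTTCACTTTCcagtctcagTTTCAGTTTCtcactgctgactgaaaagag
Oas1a, chr5:120907510-120907559, minus strand: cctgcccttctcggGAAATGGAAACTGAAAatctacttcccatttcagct
Oas1g, chr5:120887596-120887645, minus strand: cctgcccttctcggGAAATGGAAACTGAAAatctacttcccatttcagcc
Socs1, chr16:10785584-10785633, minus strand: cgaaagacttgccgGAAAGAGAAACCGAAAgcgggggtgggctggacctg
Ifih1, chr2:62646206-62646243, minus strand: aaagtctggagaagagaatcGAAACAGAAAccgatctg
Ifitm3, chr7:141010713-141010762, minus strand: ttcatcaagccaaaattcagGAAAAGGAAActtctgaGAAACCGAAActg
Rsad2, chr12:26456543-26456592, minus strand: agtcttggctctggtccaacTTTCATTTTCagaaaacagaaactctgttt
Igtp, chr11:58199502-58199551, plus strand: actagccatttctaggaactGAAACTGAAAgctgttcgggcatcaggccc
Cxcl10, chr5:92349073-92349122, minus strand: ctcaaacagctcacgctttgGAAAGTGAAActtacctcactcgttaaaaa
Isg15 held 3 overlapping matches, whereas Igtp, Rsad2 and Cxcl10 each held 1. Matches in Ifit1 and Rsad2 lie on the opposite strand, where the repeat reads as TTTC. The 19 genes with a match had log2 ratios of mutant over control between -1.58 and 1.28, with a median of -0.065. The 12 measured genes without one lay between -0.69 and 0.92, with a median of -0.077. These medians are a description and were not tested against each other.

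Signed values follow the labels, but the deposited ratios did not run the same way on all arrays. Their correlation with Cy5 over Cy3 was positive on array 2 (0.935) and negative on arrays 1 and 3 (-0.947 and -0.939). Whether array 2 was a dye swap is not known, so its sign was also turned as an alternative. All 13 interferon-stimulated genes whose mean then changed sign went from below to above 0, and they are named with the list's values. In each library 73.4% to 80.4% of the probes exceeded background, and 0 were saturated. Of the 39 genes, 38 were well above background in all 6 libraries, as were 19509 of all 22224 genes tested, which had passed the filter on dim signal. Of 6 genes for markers of blood progenitors, 6 were above background in all 6 libraries. They were Kit and Ly6a, the genes of c-kit and Sca-1, and Cd34, Flt3, Slamf1 and Cd48, which the sort as given does not name. At an unadjusted p under 0.05 (10.1% of all genes), Flt3 had a mean ratio of -1.15, Ly6a of 0.82 and Slamf1 of 1.16. In each the groups did not overlap (mutants above in 7.2% of all genes, below in 11.7%). Above background in all 6 libraries were also 9 of the 10 measured markers of the lineage depletion, which on an array does not show how many cells carried them. Of these 10, Ly6c1 had a mean ratio of 1.31, Itgam of -1.05 and Cd3g of -0.77, also at an unadjusted p under 0.05 and with no overlap. With array 2 turned these 6 means lay between -0.36 (Slamf1) and 0.52 (Ly6c1), and of the 6 only Slamf1 changed sign. The part of the markers in other ratios was not tested. In bulk samples fewer cells of a type and less RNA per cell cannot be told apart. Control library 1 stood apart, with a mean log2 signal of 15.23 over 12 immediate early genes against 11.99 and 11.13 in the other controls and 10.34 to 11.35 in the mutants.

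The interferon-stimulated genes as a list had a median close to 0, as did all genes tested. Their median log2 ratio of mutant over control was -0.080, against -0.044 over all genes tested. A mean ratio within 0.5 of 0 was found for 29 of the 39, and for 17605 of all 22224 genes. Mean ratios ran from -1.58 (Cxcl10) to 1.28 (Ifih1), with 15 above and 24 below 0, where 54.6% of all genes were below 0. When array 2 was turned, 28 were above and 11 below 0, and the median was 0.18, against -0.0115 over all genes. As labelled, 33 of the 39 had an array 2 ratio below 0, so turning it raised their means. The 13 that changed sign were Zbp1 (0.010 when turned), Eif2ak2 (0.013), Rsad2 (0.019), Oas1a (0.057), Isg15 (0.082), Adar (0.090), Ifi35 (0.13), Usp18 (0.18), Stat2 (0.26), Trim25 (0.28), Ifi44 (0.29), Ifit3 (0.53) and Rtp4 (0.58). The median gene had an SD of 0.43 over the 3 arrays, against 0.40 over all genes, so the spread between arrays exceeded most of the mean differences. By limma, 0 of the 39 genes had an adjusted p under 0.05, where 0% of all genes did, and their adjusted p ran from 0.461 to 0.995. An unadjusted p under 0.05 was found for 8 of the 39 (20.5%), against 10.1% of all genes. Of these, 3 had a higher signal in the mutant (4.81% of all genes) and 5 a lower one (5.32%). The 3 were Ifih1, Ifitm3 and Cxcl9, and the 5 were Mx2, Rsad2, Oas2, Parp14 and Cxcl10. Without array 1 the count was 3 (Cxcl9, Ifih1 and Mx2; 7.69%), against 5.84% of all genes. With the mean of all probes of a gene it was 5 (12.8%), against 10.4%. With array 2 turned it was 2 (5.13%), against 2.89% of all genes (1.51% higher, 1.39% lower), and these were Oasl2 and Igtp, both higher, of which 0 were among the 8.

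**Figure D1:**
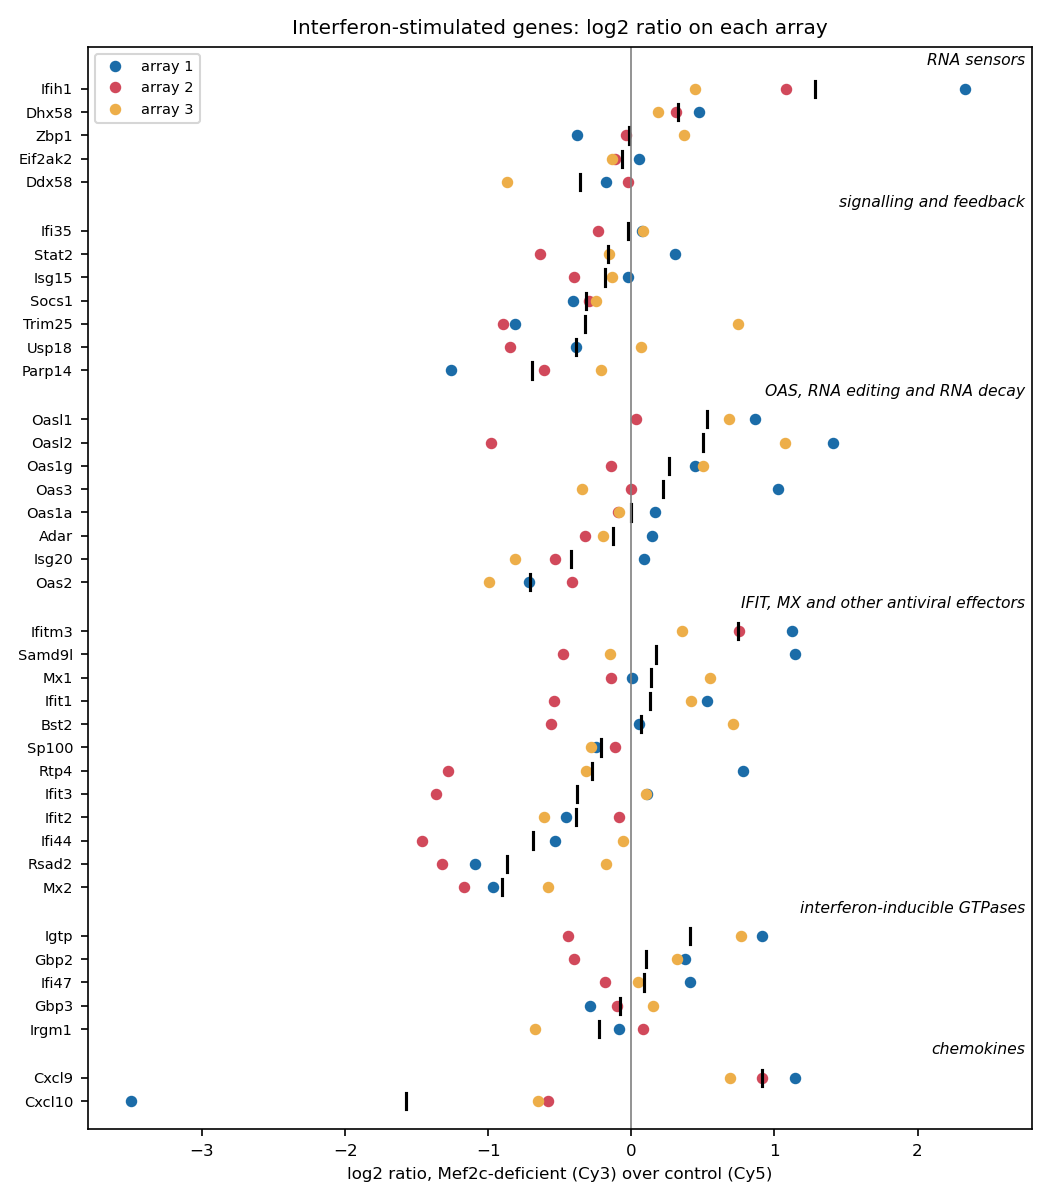
Log2 ratio of mutant over control on each of the 3 arrays (x axis) for the 39 measured genes (y axis), grouped by role; points are arrays and the black bar is the mean of the 3. Most means lie within 0.5 of 0, as they do for 17605 of all 22224 genes tested. Cxcl10 on array 1 lies at -3.49, and the points of array 2 fall below 0 for 33 of the 39 genes (55.1% of all genes).

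The arrays differed from each other in this gene list. On array 2, 33 of the 39 genes had a ratio below 0, where 55.1% of all genes did, and their median was -0.33 against -0.055 over all genes. On array 1, 16 were below 0 (54.3% of all genes) and the median was 0.075, against -0.068 over all genes. On array 3, 20 were below 0 (49.6% of all genes) and the median was -0.061, against 0.0042 over all genes. Both libraries of array 2 took part. Control library 2 had the highest signal of the 3 controls for 21 genes (53.8%, against 29.7% of all genes), and mutant library 2 the lowest of the 3 mutants for 21 genes (53.8%, against 34.4%). Control library 1 was the lowest control for 20 genes (51.3%, against 33.4%). The difference between array 2 and the others has no replicate and was not tested.

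**Figure D2:**
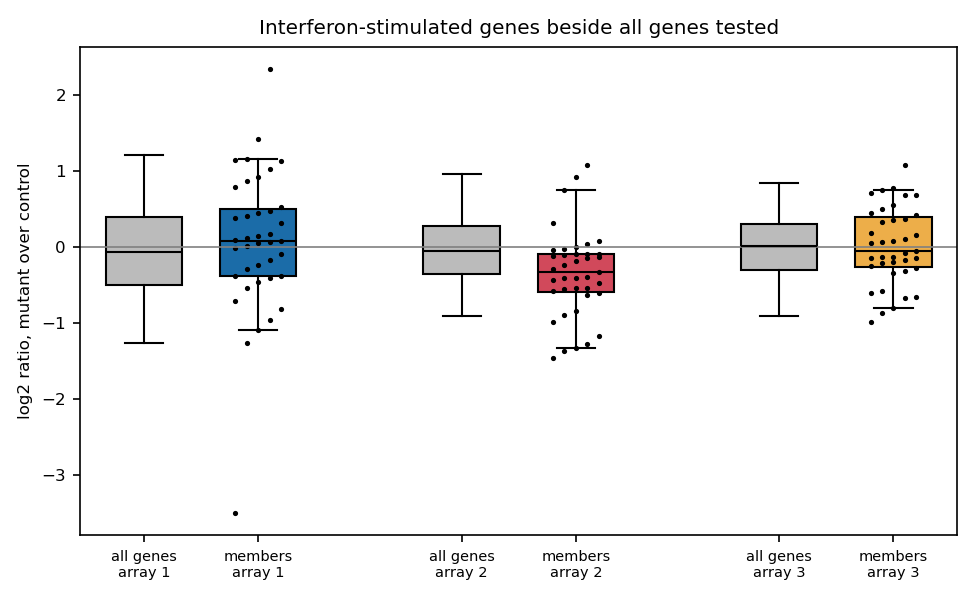
Log2 ratio of mutant over control (y axis) on each array for all genes tested (grey boxes) and for the 39 interferon-stimulated genes (coloured boxes, with a point per gene); boxes span the quartiles with the median as a line, and whiskers the 5th to 95th percentile. On array 2 the genes of the list have a median of -0.33, against 0.075 on array 1 and -0.061 on array 3.

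How many genes ran the same way depended on the sign of array 2. As labelled, 16 of the 39 ran the same way on all 3 arrays (41%, against 35.5% of all genes), with 5 higher in the mutant (15.2% of all genes) and 11 lower (20.3%). With array 2 turned, 11 ran the same way (28.2%, against 20.1% of all genes), with 10 higher (25.6%, against 10.7%) and 1, Irgm1, lower (9.45% of all genes), and the list's median was 0.18. The 10 were Oasl2, Igtp, Ifit1, Ifit3, Oas1g, Gbp2, Bst2, Mx1, Ifi47 and Ifi35. Without array 2 the median was 0.040, so the sign of the list's median rested on that array. In 4 genes the libraries of the groups did not overlap. In Ifih1 and Ifitm3 all mutants lay above all controls (7.2% of all genes), and in Mx2 and Ifit2 all lay below (11.7%).

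Among the 5 RNA sensors, only Ifih1 had an unadjusted p under 0.05. Ifih1 encodes MDA5, the helicase that binds long double-stranded RNA such as poly(I:C). Its log2 signal was 10.95, 10.86 and 11.12 in mutant libraries 1, 2 and 3 and 8.61, 9.78 and 10.67 in the controls. All mutants lay above all controls, and the controls were spread more widely than the mutants. Its log2 ratio was 2.33, 1.08 and 0.44, with a mean of 1.28 ± 0.96 (SD, n = 3; adjusted p = 0.463 by limma). That mean was 0.76 without array 1 and 0.56 with array 2 turned, and averaging its probes gave 0.96 and an unadjusted p above 0.05. A dimmer probe of Ifih1 had 2.67, 0.90 and -1.65, so the probes opposed each other on array 3. Dhx58, which encodes LGP2, a helper of MDA5, had ratios of 0.47, 0.31 and 0.19 (mean 0.32 ± 0.14, adjusted p = 0.580; 0.12 with array 2 turned). Its mutant signals of 12.30, 12.28 and 12.57 overlapped with control signals of 11.83, 11.96 and 12.38. Ddx58, which encodes RIG-I, was measured by 4 probes with mean ratios between -0.46 and -0.065. Zbp1, a sensor of Z-form nucleic acid that can trigger cell death, had a mean of -0.017. Eif2ak2, the kinase PKR that stops translation when it binds double-stranded RNA, had -0.065, with an SD of only 0.10.

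All 7 genes of signalling and feedback had a mean ratio below 0, between -0.69 and -0.026, and on array 2 all 7 were below 0, where 54.6% of all genes had a mean and 55.1% an array 2 ratio below 0. Their median was -0.32, and with array 2 turned it was 0.13, with 5 of the 7 (Stat2, Isg15, Usp18, Trim25 and Ifi35) above 0. Parp14, an ADP-ribosyltransferase, had mutant signals of 8.69, 9.85 and 9.36 and control signals of 9.94, 10.46 and 9.58. Mutant library 1 was the lowest of the 6, and the groups overlapped. Its log2 ratio was -1.26, -0.61 and -0.21, with a mean of -0.69 ± 0.53 (SD, n = 3; adjusted p = 0.484 by limma). The mean was -0.41 without array 1 and -0.29 with array 2 turned, and both dimmer probes of Parp14 had means above 0, at 0.24 and 0.14. Socs1, which blocks JAK kinases and so ends the signal, had signals of 8.56, 8.56 and 8.20 in the mutants and 8.97, 8.86 and 8.45 in the controls. Each mutant lay below the control on its own array, although the groups overlapped through control library 3. Its ratio of -0.40, -0.30 and -0.25 had the smallest SD of the 39 genes (mean -0.32 ± 0.079, adjusted p = 0.578; -0.12 with array 2 turned). Trim25, the ubiquitin ligase that activates RIG-I, had ratios of -0.82, -0.90 and 0.74 (mean -0.32 ± 0.92, adjusted p = 0.748). Its signals were 13.27, 13.14 and 14.13 in the mutants and 14.08, 14.04 and 13.39 in the controls, so array 3 ran against the other 2. With array 2 turned its mean was 0.28. Isg15, a ubiquitin-like protein, and Usp18, the protease that removes it and also dampens the interferon receptor, had means of -0.19 and -0.39. Stat2 had -0.16 and Ifi35 had -0.026.

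The OAS family makes 2-5A, a short RNA that activates RNase L, and its genes went both ways. Oas2 had signals of 10.19, 11.12 and 10.59 in the mutants and 10.91, 11.54 and 11.58 in the controls. Each mutant lay below its own control, and mutant library 2 above control library 1. The log2 ratio of Oas2 was -0.72, -0.41 and -0.99, with a mean of -0.71 ± 0.29 (SD, n = 3, adjusted p = 0.463 by limma). A dimmer probe had a mean of -0.47, but on array 1 it was at 0.36, opposed to the tested probe. With array 2 turned the tested probe was at -0.43, and its unadjusted p was above 0.05 then and without array 1 or array 3. Oasl1, which restrains translation of Irf7, had signals of 12.45, 11.05 and 11.69 in the mutants and 11.59, 11.02 and 11.01 in the controls. On array 2 the pair was level, and its ratio was 0.87, 0.036 and 0.68 (mean 0.53 ± 0.44, adjusted p = 0.507). Its neighbour Oasl2 had ratios of 1.41, -0.98 and 1.07 (mean 0.50 ± 1.29, adjusted p = 0.700), with mutant signals of 11.09, 9.85 and 11.45 and control signals of 9.68, 10.83 and 10.38. Mutant library 2 was the lowest mutant and control library 2 the highest control, and with array 2 turned the mean of Oasl2 was 1.15. Oas1a and Oas1g had means of -0.0042 and 0.27, and signal from these closely related copies may mix on a probe. Oas3 had a mean of 0.22, with 1.03 on array 1 and -0.0052 and -0.35 on the others, and its dimmer probe had a mean of -0.079. Isg20, an RNA exonuclease, had -0.42, and Adar, which edits adenosine in double-stranded RNA, had -0.13. Dimmer probes of these 2 genes had means above 0, at 0.23 for Isg20 and 0.48 for Adar.

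Of the 12 measured antiviral effectors, Mx2 and Rsad2 had the lowest means and Ifitm3 the highest. Mx2, a dynamin-like GTPase that traps viral components, had signals of 8.30, 8.68 and 8.90 in the mutants and 9.26, 9.85 and 9.48 in the controls. All mutants lay below all controls. Its log2 ratio was -0.96, -1.17 and -0.58, with a mean of -0.90 ± 0.30 (SD, n = 3; adjusted p = 0.461 by limma), and with array 2 turned it was -0.13. Mx1, whose promoter drives the Cre here, lies beside Mx2. Its signals were 10.21, 10.44 and 10.70 in the mutants and 10.20, 10.59 and 10.15 in the controls, so the groups overlapped. The ratio of Mx1 was 0.0056, -0.14 and 0.55 (mean 0.14 ± 0.37, adjusted p = 0.830). Its dimmer probe had 0.48, 0.077 and -0.43 (mean 0.041), so the probes opposed each other on arrays 2 and 3. The sign of the small mean of the tested probe changed without array 3 (-0.069) and with median centring (-0.074).

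Rsad2 encodes viperin, which makes a chain-terminating nucleotide. Its signals were 11.38, 10.44 and 11.03 in the mutants and 12.48, 11.76 and 11.20 in the controls, where mutant library 1 lay above control library 3. Its log2 ratio was -1.09, -1.33 and -0.18, with a mean of -0.87 ± 0.61 (SD, n = 3; adjusted p = 0.468 by limma). The 2 dimmer probes of Rsad2 had means of -0.58 and 0.22, and with array 2 turned the tested probe was at 0.019. Ifitm3, a membrane protein that stops virus fusion, had signals of 15.32, 15.24 and 15.04 in the mutants and 14.20, 14.49 and 14.68 in the controls. All mutants lay above all controls, with the smallest gap on array 3. The ratio of Ifitm3 was 1.12, 0.75 and 0.35 (mean 0.74 ± 0.39, adjusted p = 0.466 by limma). With array 2 turned it was 0.24, and its unadjusted p was above 0.05 then, with median centring, and without array 1 or array 2. Ly6a, the gene of the sorted marker Sca-1 and itself raised by interferon, had ratios of 0.93, 0.51 and 1.02 (mean 0.82 ± 0.27, adjusted p = 0.463). The sort selected on its protein in both groups, and what part this had in other ratios was not tested.

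Rtp4, an antiviral chaperone, had ratios of 0.78, -1.28 and -0.32 (mean -0.27 ± 1.03, adjusted p = 0.801 by limma). Its mutant signals were 12.58, 11.54 and 11.84 and its control signals 11.80, 12.82 and 12.16. Control library 2 was the highest and mutant library 2 the lowest of the 6, and without array 2 the mean was 0.23. The 3 IFIT genes, of a family that includes proteins that bind viral RNA ends, are neighbours on chromosome 19. Their means were 0.13 for Ifit1, -0.38 for Ifit2 and -0.38 for Ifit3. Ifit2 had signals of 11.73, 11.86 and 11.77 in the mutants and 12.19, 11.94 and 12.38 in the controls, all mutants below all controls, but its dimmer probe had a mean of 0.10. On array 2 Ifit3 was at -1.36 and Ifit1 at -0.54, whereas on arrays 1 and 3 both were above 0. Ifi44 had a mean of -0.69, Sp100, of PML nuclear bodies, -0.21, Samd9l 0.17, and Bst2, the tetherin that holds budding virus on the cell, 0.068. Bst2 also marks plasmacytoid dendritic cells, and 7 of 8 other markers of these cells were measured, with means of -0.38, -0.066 and -0.32 on arrays 1, 2 and 3. Of the 7 markers, 5 were lower and 0 higher on all 3 arrays as labelled (20.3% and 15.2% of all genes). An unadjusted p under 0.05 was found for 0 of them (10.1% of all genes). Their mean log2 signal was 10.50 to 10.79 in the mutants and 10.85 to 10.96 in the controls.

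**Figure D3:**
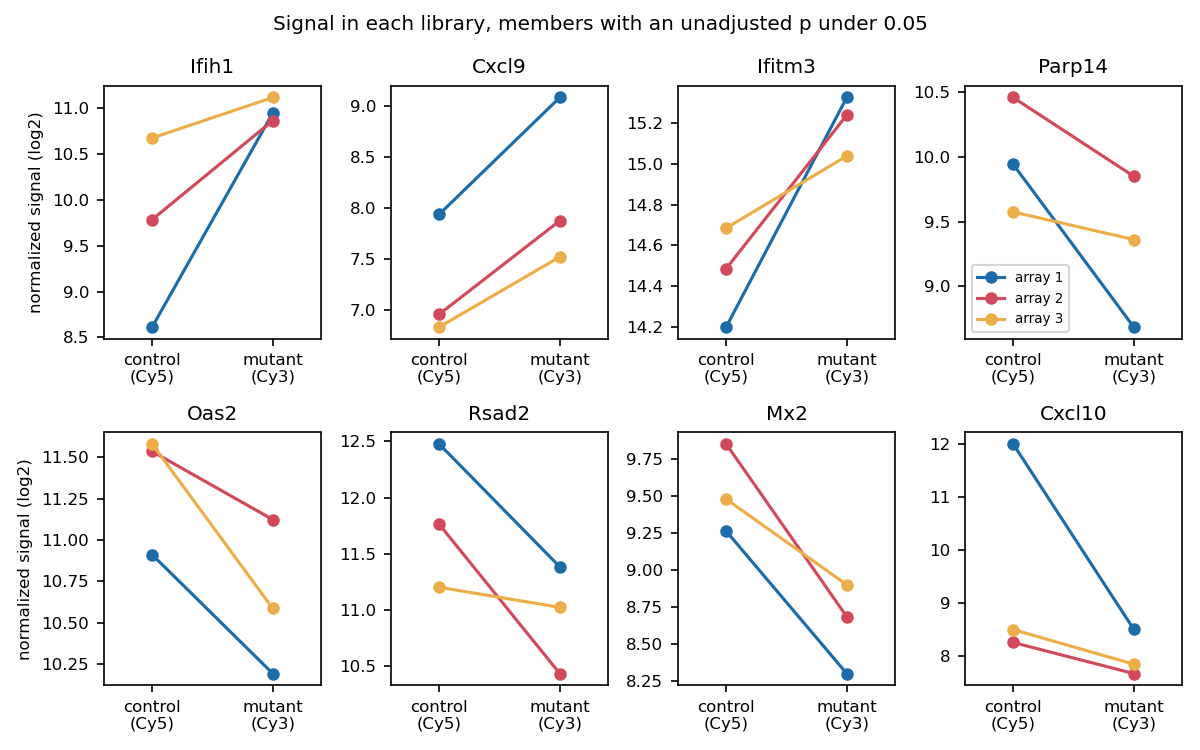
Normalized log2 signal (y axis, a scale of its own per gene) in the control and mutant library of each array for the 8 genes with an unadjusted p under 0.05; a line joins the libraries of 1 array. In Ifih1, Ifitm3 and Mx2 the groups do not overlap, and in Cxcl10 control library 1 lies at 12.00 while the other 5 libraries lie between 7.67 and 8.51.

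Interferon-inducible GTPases, which are mainly targets of interferon gamma and attack the vacuoles of intracellular microbes, had means between -0.23 and 0.41 in all 5 genes. Igtp had ratios of 0.91, -0.44 and 0.77 (mean 0.41 ± 0.74, adjusted p = 0.637 by limma). Its signals were 10.51, 9.94 and 10.86 in the mutants and 9.60, 10.38 and 10.09 in the controls, so array 2 ran against the other 2, and with array 2 turned its mean was 0.71. Irgm1, a regulator of the other members of its family, had -0.088, 0.078 and -0.67 (mean -0.23 ± 0.39, adjusted p = 0.727), with mutant signals of 12.99, 13.44 and 12.40 and control signals of 13.07, 13.36 and 13.07. Mutant library 3 was the lowest of the 6, and a dimmer probe of Irgm1 had a mean of 0.020. Ifi47, Gbp2 and Gbp3 had means of 0.090, 0.099 and -0.080.

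The neighbouring chemokine genes Cxcl9 and Cxcl10, whose proteins attract T cells through CXCR3, had opposite ratios. Cxcl9 had signals of 9.08, 7.87 and 7.52 in the mutants and 7.94, 6.96 and 6.83 in the controls. Each mutant lay above its own control, the libraries of array 1 were the highest of each group, and the groups overlapped through control library 1. Its log2 ratio was 1.14, 0.92 and 0.69, with a mean of 0.92 ± 0.23 (SD, n = 3; adjusted p = 0.461 by limma), and 2 of the 3 controls were well above background. The mean was 1.52 with the processed signals and 0.31 with array 2 turned. Beside it, 9 of 10 macrophage markers were measured, with means of 0.49, 0.11 and 0.31 on the 3 arrays. Of the 9, 6 had a mean above 0 and 3 below it, where 54.6% of all genes were below. On all 3 arrays 3 were higher and 1, Marco, lower (15.2% and 20.3% of all genes). At an unadjusted p under 0.05, 2 of the 9 had a higher signal (4.81% of all genes) and 0 a lower one (5.32%). The mean log2 signal of these markers was 9.80 to 10.18 in the mutants and 9.63 to 9.86 in the controls, and their part in the ratio of Cxcl9 was not tested.

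Cxcl10 had signals of 8.51, 7.67 and 7.85 in the mutants and 12.00, 8.26 and 8.50 in the controls. Control library 1 was the highest by far, and mutant library 1 lay above controls 2 and 3. Its log2 ratio was -3.49, -0.59 and -0.65, with a mean of -1.58 ± 1.66 (SD, n = 3; adjusted p = 0.478 by limma), and the mean was -0.62 without array 1 and -1.19 with array 2 turned. On the same array the 12 immediate early genes had a mean ratio of -4.89, against -0.65 and -0.031 on arrays 2 and 3. The 10 neutrophil markers had -2.60, 0.21 and -0.77, with a mean signal of 12.62 in control library 1, 9.96 and 10.19 in the other controls and 9.43 to 10.17 in the mutants. What part these had in the ratio of Cxcl10 was not tested.

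Different probes of a gene often disagreed. Of the 39 genes, 16 had 2 or more kept probes, and in 9 of these the probes' means had opposite signs. The 9 were Adar, Ifi44, Ifit2, Irgm1, Isg20, Oas3, Parp14, Rsad2 and Sp100. The largest gap on 1 array was 3.12 log2 units between the 2 probes of Ifi44 on array 1, where the tested probe was at -0.54 and the other at 2.58. On array 1 the other probes lay above the tested, brightest probe in 15 of the 16 genes, against 58.3% of all genes with several kept probes, and the median difference was 0.46 against 0.14. On arrays 2 and 3 this was so in 8 and 8 of the 16, against 58.2% and 48.4% of all genes. The tested probe of Ifit3 was named by its symbol in the file and the other by a RefSeq transcript, their means were -0.38 and -0.19, and the close copy Ifit3b may share their signal.

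**Figure D4:**
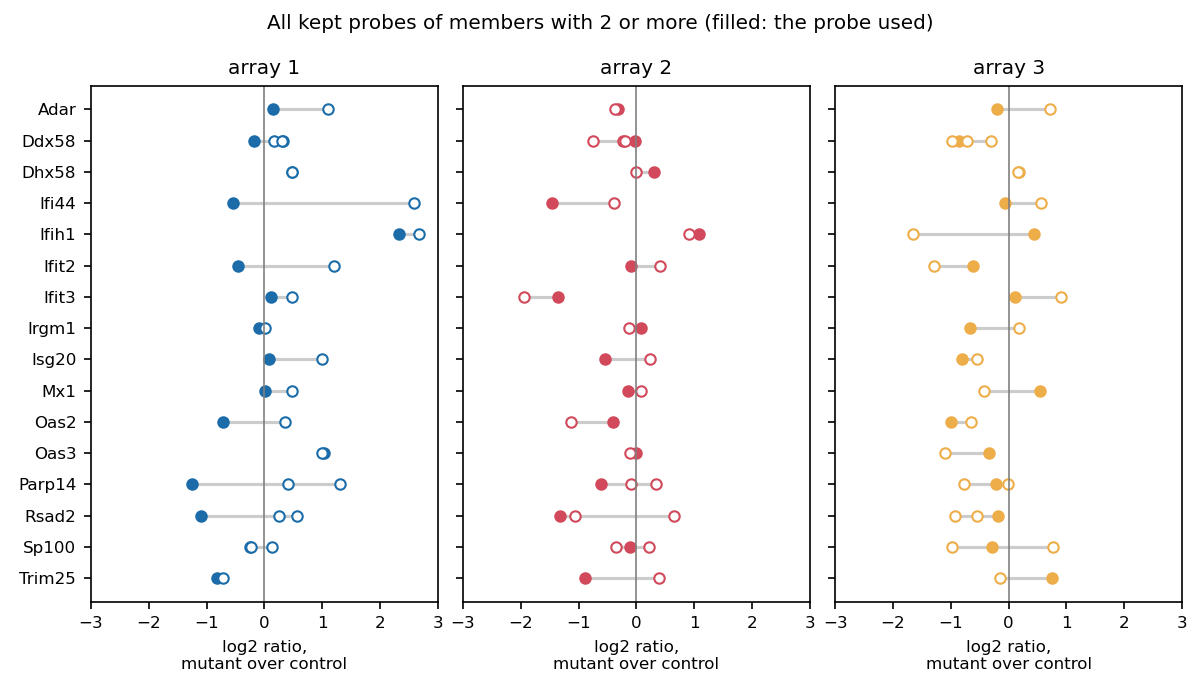
Log2 ratio of mutant over control (x axis) of each kept probe on arrays 1, 2 and 3 for the 16 genes with several kept probes (y axis); the filled point is the brightest probe, used in the test, and open points are the others. On array 1 the open points lie to the right of the filled one on average in 15 of 16 genes.

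Other genes of the pathway also gave no call. Of 30 listed, 25 were measured, and 0 had an adjusted p under 0.05 by limma. At an unadjusted p under 0.05 there were 2, both higher in the mutant (4.81% of all genes): Ifngr1, a chain of the interferon gamma receptor, and Ikbke, a kinase that activates IRF3 and IRF7. Ifngr1 had ratios of 0.32, 0.52 and 0.91 (mean 0.58 ± 0.30, adjusted p = 0.483) and Ikbke had 0.65, 0.82 and 0.77 (mean 0.75 ± 0.090, adjusted p = 0.463). With array 2 turned the count was 0 (2.89% of all genes), and without array 2 it was also 0 (8.13%). Without array 1 it was 4 (5.84% of all genes). The median of the 25 was 0.12. By role, 4 of 7 ligands were measured with a median of 0.010, and all 7 receptors and kinases with 0.14. All 5 transcription factors were measured, with a median of -0.24 and means of 0.55, -0.092 and -0.83 on arrays 1, 2 and 3. The 5 of 7 measured sensors and adaptors had a median of 0.13 and the 4 negative regulators 0.028.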

How the data were processed

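Cells were sorted at 15000 a sample, their cDNA was amplified by PCR, and 250 ng was labelled, per the labels' protocols. Per the file headers, Feature Extraction 9.5.1.1 produced the spot intensity values the authors deposited, together with processed signals and log10 ratios (Cy5 against Cy3). The authors also deposited log2 ratios per spot. Limma is named in the submitters' processing notes, and how those ratios were normalized was not given in the sources used.

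Starting from the mean and background intensities, normexp (offset 50) and loess were applied with limma, control spots having no weight, and 252 to 331 outlier spots an array were dropped. Aquantile gave the signals of single libraries. A probe was kept where 1 channel exceeded background clearly on 2 or more arrays (32911 of 41174 probes), and the brightest kept probe stood for its gene. Names came from accessions (22951 probes), symbols (6659), synonyms (3109) or the file itself (8455). The mean ratio was tested against 0 by limma 3.58.1 under R 4.3.3, using an intercept alone, with Benjamini-Hochberg adjustment across 22224 genes. The code of the fit was run on simulated ratios with independent noise and no array, dye or probe effects. That run does not bear on which changes these 3 arrays could show. The number of arrays, 3, limits the precision. Per the file headers the 3 arrays share 1 slide and 1 scan, so neither could be fitted as a block.

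The genes, lists and tests were chosen with earlier results of these data known. Values per library are given for genes with an unadjusted p under 0.05, for the 2 smallest p and the widest range over arrays in each role, and for Mx1, Cxcl10 and Ifih1. Alternatives were the processed signals, median centring, the deposited ratios (each array turned to mutant over control as labelled), array 2 turned, the mean of kept probes, other filters on dim probes and each array left out.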

Additional observations from a re-analysis of the deposited data

How the results depend on the processing

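The count of genes with an adjusted p under 0.05 by limma stayed 0 over all genes in every alternative run, among them the processed signals, the deposited ratios and each array left out. At an unadjusted p under 0.05 the split over all genes was 1070 higher and 1182 lower as reported, and 553 and 2319 with median centring, which moved the median of all genes from -0.044 to -0.18. The median of the 39 genes was then -0.23. That median lay between -0.11 and -0.026 with the processed signals, the deposited ratios, the mean of kept probes and both other filters. The deposited ratios were first turned to mutant over control as labelled, so array 2 was given the opposite sign to that of arrays 1 and 3, and they do not bear on its direction. The median of the 39 genes lay between -0.18 and 0.040 with 1 array left out, and it was 0.18 with array 2 turned. The number of these genes at an unadjusted p under 0.05, 8 as reported, was 5 with the mean of kept probes (12.8%, against 10.4% of all genes), 2 with array 2 turned (5.13% against 2.89%) and between 3 and 8 with 1 array left out. It was 3 without array 1 (7.69% against 5.84%), 6 without array 2 (15.4% against 8.13%) and 8 without array 3 (20.5% against 12.3%). Among the 25 other pathway genes it was 2, against 10.1% of all genes. For these it was 0 with array 2 turned (2.89% of all genes) and between 0 and 4 with 1 array left out (5.84% to 12.3%). Of 17 genes followed singly, 3 changed sign with array 2 turned: Rsad2 (0.019), Rtp4 (0.58) and Trim25 (0.28). The others that did so were Mx1 with median centring (-0.074) and without array 3 (-0.069), and Rtp4 without array 2, whose mean lay between -0.80 and 0.23 with 1 array left out. The direction of array 2 therefore limits every signed statement here, and the cause of these shifts was not tested.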
